A study of Mus musculus with 14 samples.

Results

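The epididymal fat pad, a visceral depot beside the testis, was compared between mice that lack apolipoprotein E (EKO) and wild-type mice (WT) after both had eaten a Western diet. The comparison rests on 7 of the 14 arrays of the series, 4 from EKO and 3 from WT mice, and covers all 19937 genes that a probe set with a single gene symbol represents. All mice were male, carried the C57BL6/J strain name and were fed for 24 weeks from 8 weeks of age. The Western diet held 42% milk fat and is named HFD in the labels; the other 7 arrays, 4 EKO and 3 WT, came from mice on a normal diet and served to show the same genotype difference without the Western diet. The labels tie EKO to apolipoprotein E and name no cell type or promoter that would limit the loss, and they call the arrays of a group biological replicates. RNA was read on Affymetrix whole-transcript arrays, and levels are log2 values after RMA, a method that subtracts background, normalizes between arrays and combines the probes of each set. Below, a level is a group mean ± SD, a difference is EKO minus WT on Western diet on the log2 scale ± its standard error, and a gene is called higher or lower in EKO when limma gave a Benjamini-Hochberg adjusted p under 0.05 over all genes. The number of arrays limits the precision, and in bulk tissue fewer cells of a type and less RNA per cell cannot be told apart.

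Apolipoprotein E is a surface protein of triglyceride-rich lipoproteins that binds receptors of the LDL receptor family, and mice without it carry very high plasma cholesterol. Fat cells and macrophages both make it. In obesity, visceral fat gathers macrophages around dying fat cells, and these macrophages take up lipid, enlarge their lysosomes and divide in place, while fat cells lose insulin-responsive enzymes and raise leptin.

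Apoe itself, on which the labels can be checked, stood at 13.13, 13.41 and 13.65 in the WT arrays and at 10.26, 9.84, 9.92 and 10.12 in the EKO arrays on Western diet. The groups did not overlap, and every EKO array was far below every WT array. The difference was -3.36 ± 0.16, adjusted p = 4.6e-08, a 10.3-fold lower level; the array does not show which part of the transcript remains. On normal diet it was -3.67 ± 0.16 (adjusted p = 1.32e-08), and the levels went with the genotype labels on both diets. Nnt, a mitochondrial transhydrogenase gene that carries a deletion in C57BL6/J mice, was at 8.76 ± 0.30 in WT and 8.90 ± 0.17 in EKO (difference 0.14 ± 0.14, adjusted p = 0.637) and was not called. The depot read as fat: the array means of 5 fat cell markers lay at 13.3 to 13.5 in WT and 13.3 to 13.4 in EKO, and those of 5 measured markers of the neighbouring epididymis at 6.21 to 6.36 and 6.27 to 6.52, near the array background.

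Some arrays stood apart. The mean of 1208 chemosensory receptor rows, taken as background, was 6.75 to 6.84 in 5 arrays, among them WT replicate 1 and EKO replicates 1 and 3 on Western diet, and 6.29 to 6.56 in the other 9. WT replicate 1 on Western diet also had high levels of liver transcripts: the albumin gene Alb was at 12.96 there and at 7.75 to 9.20 in the other 13 arrays, and Apoa1, an apolipoprotein of liver, at 10.86 against 8.01 to 8.67. Neither gene was called. Over all 34760 array rows the correlation between arrays ran from 0.976 to 0.995 inside a group and from 0.962 to 0.986 between EKO and WT on Western diet.

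In the whole comparison 1134 genes were called (5.69% of those tested), 808 lower (4.05%) and 326 higher (1.64%) in EKO. Of the called genes, 71.3% were lower. At least 2-fold differences were found for 180 lower and 33 higher genes, and at least 4-fold ones for 17 and 4. The median difference was -0.67 among genes called lower, 0.55 among those called higher and 0.033 over all genes. The ranges of the EKO and WT arrays did not overlap for 16.6% of all genes, 8.71% lower and 7.93% higher in EKO, and for 1102 of the 1134 called genes. The count of calls depended on single arrays: it was 2108 without WT replicate 1, the array with liver transcripts, 430 and 316 without WT replicates 2 and 3, and 727 and 652 without EKO replicates 1 and 4. With the background split as a block 2033 genes were called (734 higher, 1299 lower). A fit of only the 9 arrays of lower background gave 1616 (519 higher, 1097 lower), with 4 Western arrays, 2 of each genotype, in the comparison. Quantile normalization on top of the deposited values gave 794 higher and 1051 lower genes, so the share of higher calls moved from 28.7% to 43%.

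**Figure D1:**
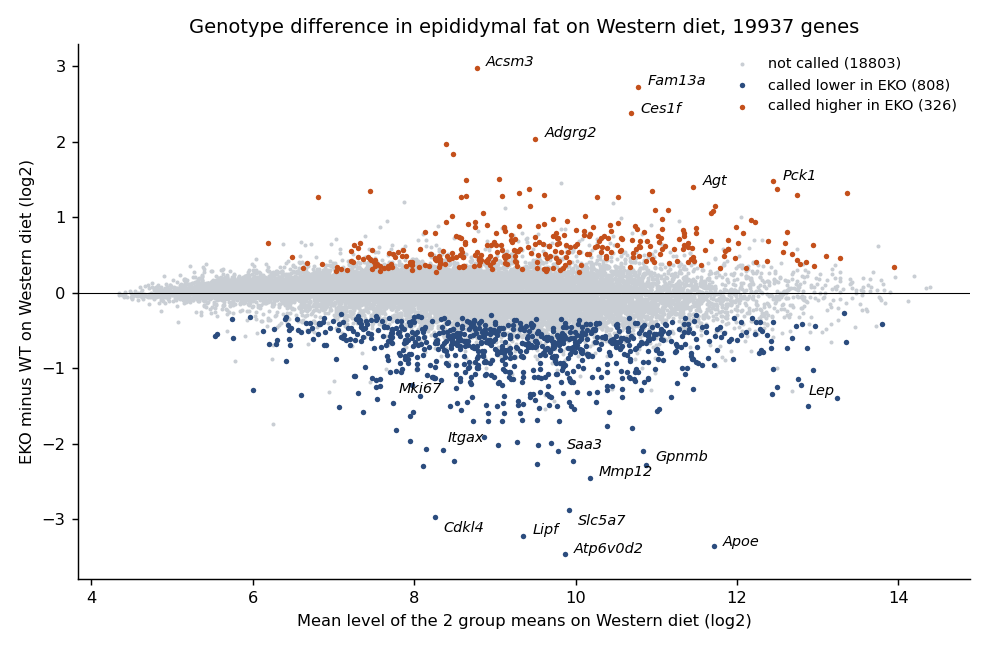
Difference between EKO and WT on Western diet (y axis, log2) against the mean level of both groups (x axis, log2) for each of 19937 genes; blue points are the 808 genes called lower and orange points the 326 called higher in EKO. The points far from 0 lie mostly below it, with Atp6v0d2, Apoe and Lipf lowest and Acsm3, Fam13a and Ces1f highest.

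Among genes of apolipoproteins and lipoprotein receptors, 2 of 19 measured members were called, both lower (beside 4.05% of all genes called lower). Without WT replicate 1, the array with liver transcripts, 4 were lower, and without WT replicate 2 or 3 1 was. Apobec1, the enzyme that edits apolipoprotein B messenger RNA, fell by 1.29 ± 0.23 (adjusted p = 0.00486). Vldlr, a receptor that binds apolipoprotein E and helps fat cells take up triglyceride, fell by 0.75 ± 0.15 (adjusted p = 0.0108). The receptor genes Lsr (0.34 ± 0.11) and Sorl1 (-0.84 ± 0.30) and the sorting receptor gene Sort1 (0.29 ± 0.10) were not called. Apoc1, which lies next to Apoe on the chromosome, had a difference of -0.68 ± 0.33 (adjusted p = 0.275) on Western diet and -1.17 ± 0.33 on normal diet, called on neither. Of the 80 measured genes within 40 places of Apoe in the gene order, 5 were called, all lower (6.25%, beside 5.69% of all genes). They were the kinase gene Dmpk (-0.80 ± 0.17), the cyclising enzyme gene Qpctl (-0.71 ± 0.17), the mitochondrial gene Opa3 (-0.59 ± 0.12), the kinase gene Mark4 (-0.39 ± 0.099) and the potassium channel gene Kcnn4 (-1.04 ± 0.17). With 1 array left out (named in brackets), the call ended for Vldlr, Dmpk and Opa3 (WT replicate 2 or 3), Qpctl (WT replicate 2 or 3 or EKO replicate 1 or 3) and Mark4 (WT replicate 2 or 3 or any EKO array), at adjusted p = 0.0537 to 0.2. Under another setting (in brackets) the call ended for Dmpk, Qpctl, Opa3 and Mark4 (only the 7 Western arrays), at adjusted p = 0.0504 to 0.106.

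The genes that fell most included several of lipid-laden macrophages and several best known from other tissues. Atp6v0d2, a subunit of the proton pump of osteoclasts and macrophages, stood at 11.40, 11.54 and 11.87 in the WT arrays and 8.99, 8.34, 7.74 and 7.46 in the EKO arrays. No EKO array came near the lowest WT array, and the difference of -3.47 ± 0.43 (adjusted p = 0.000432) corresponds to an 11.1-fold lower level. Gpnmb, a membrane glycoprotein of such macrophages, stood at 12.03, 11.93 and 12.09 in WT and 10.44, 10.07, 8.97 and 9.48 in EKO. Itgax, which encodes CD11c, a surface protein of inflammatory macrophages and dendritic cells, was at 9.89, 10.05 and 10.23 against 8.09, 8.01, 8.12 and 7.91. The EKO values of Itgax lay within a narrow band, while those of Gpnmb and Atp6v0d2 were spread widely. Itgax fell by 2.02 ± 0.16 (adjusted p = 8.06e-06) and Gpnmb fell by 2.28 ± 0.32 (adjusted p = 0.000994). Mmp12, the macrophage elastase, fell by 2.45 ± 0.45 (adjusted p = 0.0058), and Il7r, the interleukin 7 receptor, fell by 2.23 ± 0.20 (adjusted p = 3.06e-05).

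Other large falls were in genes best known from other tissues. Lipf, the gastric lipase gene, was at 11.12, 10.83 and 10.95 in WT and 7.36, 7.23, 8.45 and 7.93 in EKO, and Slc5a7, a choline transporter gene, at 11.09, 11.51 and 11.5 and 8.01, 8.32, 8.91 and 8.69. The groups were clearly apart for both genes, with differences of -3.23 ± 0.44 (adjusted p = 0.000884) and -2.89 ± 0.45 (adjusted p = 0.00201). The kinase-like gene Cdkl4 was at the array background in EKO (6.77 ± 0.28) and at least 7.52-fold lower than in WT (9.74 ± 0.34; adjusted p = 1.54e-06). Gpr50, an orphan receptor of the melatonin receptor family, was at 9.26 ± 1.04 in WT and 6.96 ± 0.13 in EKO (-2.30 ± 0.31, adjusted p = 0.000875). Oxtr, the oxytocin receptor, fell by 2.23 ± 0.33 (adjusted p = 0.00143), Lctl, a lactase-like membrane protein, fell by 2.10 ± 0.30 (adjusted p = 0.00122), and Tfr2, a transferrin receptor, fell by 2.07 ± 0.11 (adjusted p = 1.41e-07). Sycp3, a gene of meiosis, stood at 10.76, 10.61 and 10.61 in WT and 8.24, 9.77, 7.65 and 7.88 in EKO and fell by 2.27 ± 0.41 (adjusted p = 0.00523). EKO replicate 2 was the highest EKO array and still lay below every WT array. Each call of this paragraph held with each array left out. Other settings ended the call of Sycp3 (only arrays of lower background), at adjusted p = 0.0748.

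**Figure D2:**
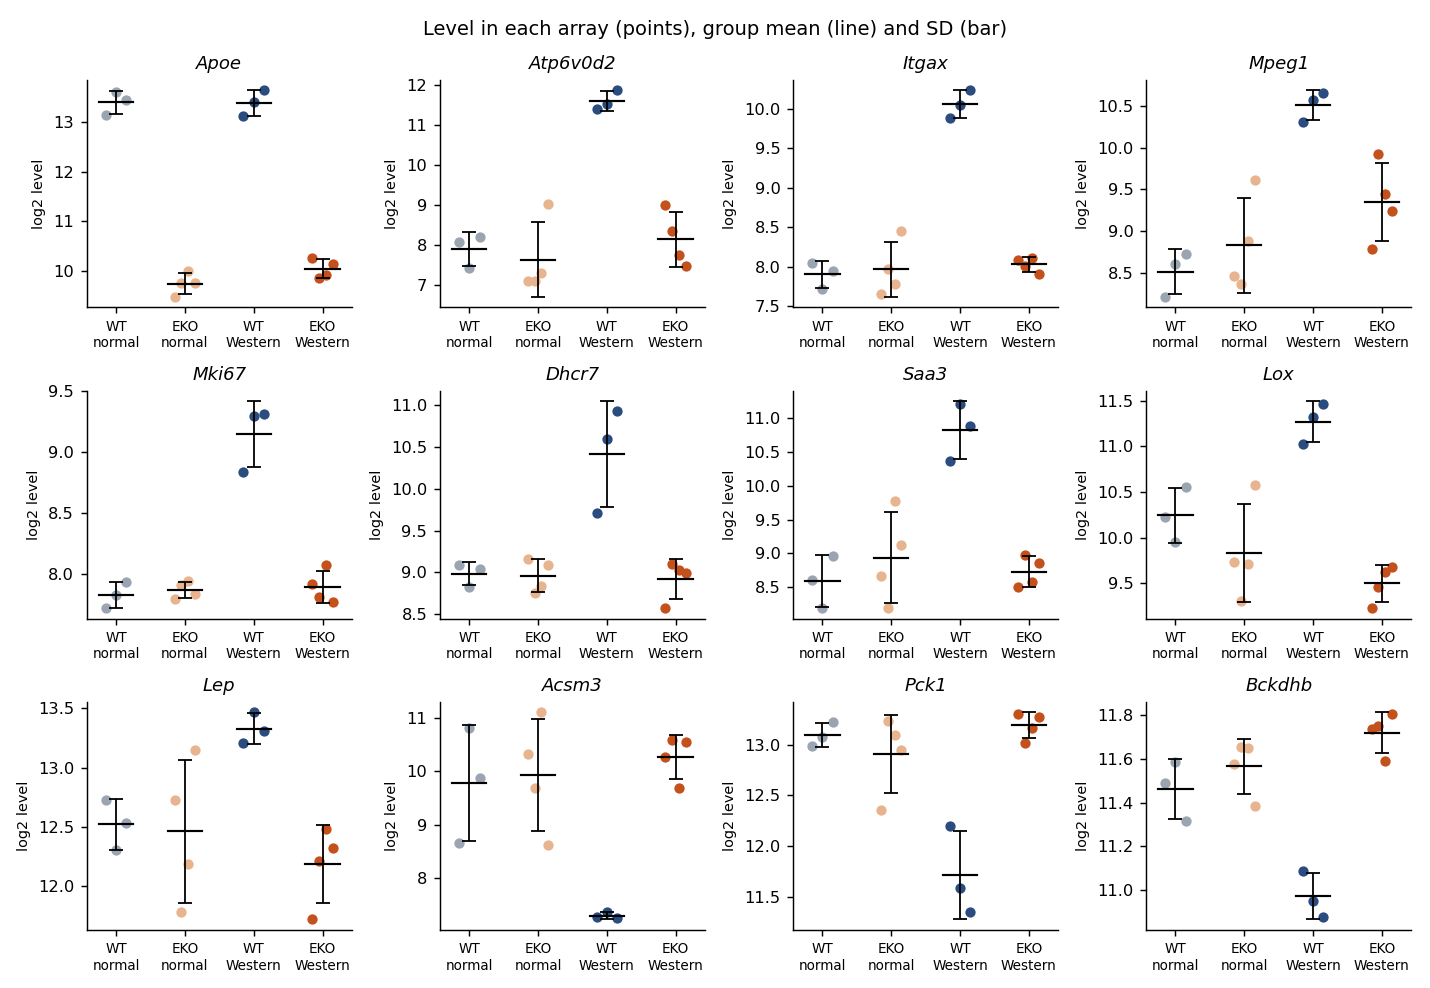
Log2 level (y axis) of 12 genes in each of 14 arrays, grouped by genotype and diet (x axis); points are arrays, lines group means and bars SD. For Atp6v0d2, Itgax, Mpeg1, Mki67, Dhcr7, Saa3, Lox and Lep the 3 WT arrays on Western diet stand above the 4 EKO arrays on that diet, for Acsm3, Pck1 and Bckdhb they stand below, and Apoe is low in both EKO groups.

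Most listed markers of macrophages were lower in EKO. Of 25 measured pan-macrophage genes 16 were called lower and 0 higher, with a list median of -0.87, and the same list had a median of 0.0074 on normal diet. Cd84, a leukocyte adhesion receptor, was at 10.04 ± 0.11 in WT and 8.55 ± 0.29 in EKO and fell by 1.49 ± 0.21 (adjusted p = 0.00122). Ctss, a lysosomal protease that trims the MHC class II invariant chain, fell by 1.59 ± 0.24 (adjusted p = 0.00164). Cd68, a lysosomal membrane protein of phagocytes, stood at 11.66, 11.76 and 12.25 in WT and 10.78, 11.06, 10.59 and 10.82 in EKO, with no overlap (-1.08 ± 0.24, adjusted p = 0.0178). Adgre1, which encodes F4/80, was at 10.88, 11.10 and 11.39 and 9.89, 10.49, 10.24 and 10.23 (-0.91 ± 0.25, adjusted p = 0.0433). Also called were the lineage transcription factor Spi1 (-1.0 ± 0.21), the signalling adaptors Tyrobp (-1.01 ± 0.22) and Fcer1g (-0.90 ± 0.18), the scavenger receptor Msr1 (-0.85 ± 0.18), the integrin Itgam (-1.02 ± 0.24) and the lysozyme gene Lyz2 (-0.73 ± 0.19). Mpeg1, a pore-forming protein of phagocytes, fell by 1.16 ± 0.28 (adjusted p = 0.0265); its EKO values ran from 8.78 to 9.92, the WT values from 10.31 to 10.66. The array mean of 5 of these markers, of which 4 were called lower, ran from 9.71 to 10.3 in EKO and from 10.7 to 11.2 in WT. It serves below as the macrophage marker mean. The number of members called was 5 without WT replicate 2, 2 without WT replicate 3 and 10 without EKO replicate 1. Calls that ended once 1 array was left out were those of Fcer1g (WT replicate 3), Cd68, Spi1, Tyrobp and Msr1 (WT replicate 2 or 3), Itgam (WT replicate 2 or 3 or EKO replicate 1 or 3), Mpeg1 (WT replicate 2 or 3 or EKO replicate 1 or 4) and Adgre1 and Lyz2 (WT replicate 2 or 3 or any EKO array), at adjusted p = 0.0501 to 0.239. The call also ended for Cd68, Fcer1g and Mpeg1 (only arrays of lower background), at adjusted p = 0.0677 to 0.0858.

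Marker genes of lipid-associated macrophages, which carry lysosomal and lipid-handling genes and can fuse into giant cells, were lower too. Of 24 measured genes 17 were called lower and 0 higher (median -0.83; -0.039 on normal diet), and with any 1 array left out 13 to 17 were called lower, beside 1 called higher without WT replicate 1. Beside Atp6v0d2, Itgax, Gpnmb and Mmp12, the bone protease gene Ctsk fell by 1.6 ± 0.18 (adjusted p = 0.000195) and the lectin gene Lgals3 fell by 1.27 ± 0.19 (adjusted p = 0.00153). Trem2, a lipid receptor of these cells, was at 10.52 ± 0.41 in WT and 9.35 ± 0.31 in EKO (-1.17 ± 0.23). The fusion receptor gene Dcstamp (-0.54 ± 0.12), the interleukin 1 antagonist gene Il1rn (-0.90 ± 0.13) and the sugar-phosphate transporter gene Slc37a2 (-1.5 ± 0.22) were called lower too. By contrast, none of 18 genes of resident tissue macrophages was called by limma, with a median of -0.045; the counts at an unadjusted p under 0.05 were 2 lower and 0 higher. Among them were the mannose receptor gene Mrc1 (-0.57 ± 0.26), the folate receptor gene Folr2 (-0.44 ± 0.26) and the phagocytic receptor gene Timd4 (0.16 ± 0.10). Whether the lists differ from each other was not tested. Leaving out 1 array ended the call of Dcstamp (WT replicate 2) and Trem2 (WT replicate 3), at adjusted p = 0.0569 to 0.0649.

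Phagocytes sense microbes, antibody and damaged cells through surface and endosomal receptors. Of 26 genes of Fc receptors, Toll-like receptors and C-type lectins 15 were called lower and 0 higher (median -0.72; 0.11 on normal diet). Tlr13, which senses bacterial ribosomal RNA, fell by 1.69 ± 0.25 (adjusted p = 0.00153) and Tlr8 fell by 1.59 ± 0.29 (adjusted p = 0.00526). Cd180, a Toll-like protein, was at 10.97 ± 0.43 in WT and 9.53 ± 0.20 in EKO (-1.44 ± 0.22), and its partner gene Ly86 at 11.46 ± 0.49 and 10.33 ± 0.37 (-1.13 ± 0.30). The lectin genes Clec4a2 (-1.22 ± 0.16), Clec12a (-1.37 ± 0.30) and Clec7a, the receptor for fungal glucan (-1.08 ± 0.21), were lower, as was the oxidised LDL receptor gene Olr1 (-0.64 ± 0.12). The macrophage marker mean moved the same way (10.7 to 11.2 in WT, 9.71 to 10.3 in EKO), and its part in this result was not tested. The list count was 7 without WT replicate 2, 5 without WT replicate 3 and 9 without EKO replicate 4. The named calls that did not hold without 1 array were those of Clec7a (WT replicate 3), Clec12a (WT replicate 2 or 3) and Ly86 (WT replicate 2 or 3 or EKO replicate 1, 2 or 4), at adjusted p = 0.0535 to 0.233.

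Of 43 genes of chemokines, cytokines and their receptors 11 were called lower and 0 higher, and the list median was -0.18. Of all genes 4.05% were called lower and 1.64% higher. The monocyte-attracting chemokine genes Ccl2 and Ccl7 stood at 9.46, 10.34 and 10.51 for Ccl2 and 9.60, 10.86 and 10.62 for Ccl7 in the WT arrays. In the EKO arrays they stood at 8.85, 8.54, 8.79 and 8.85 for Ccl2 and 8.92, 8.68, 8.74 and 8.37 for Ccl7, below WT in each case. Ccl2 fell by 1.35 ± 0.27 (adjusted p = 0.0103), Ccl7 fell by 1.68 ± 0.33 (adjusted p = 0.00945), and Ccr2, the receptor of both, fell by 1.37 ± 0.25 (adjusted p = 0.0058). The chemokine gene Ccl9 (-1.15 ± 0.18), the death receptor gene Tnfrsf21 (-1.05 ± 0.17), the GM-CSF receptor gene Csf2ra (-0.71 ± 0.13) and Tgfb1, which encodes a fibrosis-promoting growth factor (-0.76 ± 0.16), were called lower. Macrophages express many of these genes, and their marker mean moved the same way (10.7 to 11.2 in WT, 9.71 to 10.3 in EKO), with its part not tested. The count was 6 without WT replicate 2 and 4 without WT replicate 3. Tnf (-0.27 ± 0.10) and Il6 (-0.017 ± 0.073) were not called. Il6 was at 5.01 ± 0.048 in WT and 4.99 ± 0.058 in EKO, below the background of every array, with little signal to show a difference. Of 24 genes of TGF-beta, BMP and activin signalling Tgfb1 and the follistatin-like gene Fstl1 (-0.68 ± 0.17, adjusted p = 0.0331) were lower and Acvr1c, an activin receptor of fat cells, was higher (0.67 ± 0.16, adjusted p = 0.0272). The median of these 24 differences was -0.073. Without 1 array in turn, limma no longer called Csf2ra and Tgfb1 (WT replicate 3), Ccl2 and Ccl7 (WT replicate 2 or 3), Fstl1 (WT replicate 2 or 3 or EKO replicate 1 or 2) and Acvr1c (any WT array or EKO replicate 2, 3 or 4), at adjusted p = 0.0506 to 0.192.

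Few listed markers of other leukocytes and few interferon-induced genes were called, beside 1.64% of all genes called higher and 4.05% lower. Of 8 MHC class II genes 2 were called lower (beside 4.05% of all genes), the loading factor gene H2-DMa (-0.93 ± 0.24) and the invariant chain gene Cd74 (-0.64 ± 0.18), and all 8 differences lay below 0. Of 20 genes of T, NK and B cells 1 was called, Jchain, the joining chain of secreted IgA and IgM (-1.56 ± 0.38, adjusted p = 0.0282), while Cd3e, a chain of the T cell receptor complex, had a difference of -0.33 ± 0.10, adjusted p = 0.0725. None of 21 genes of mast cells, eosinophils and neutrophils was called by limma, and the counts at an unadjusted p under 0.05 were 1 lower and 3 higher. Of 16 interferon-induced genes Ifi27l2a was called and was higher (0.97 ± 0.20, adjusted p = 0.0125), while the list median was 0.069. Without WT replicate 1 the T, NK and B cell list had 2 lower and 1 higher gene and the mast cell list 1 of each, and without EKO replicate 2 the latter had 1 lower gene. On leaving out 1 array the call was lost for Ifi27l2a (WT replicate 3), Jchain (WT replicate 2 or 3 or EKO replicate 1, 3 or 4), Cd74 (any WT array or EKO replicate 1, 2 or 4) and H2-DMa (WT replicate 2 or 3 or any EKO array), at adjusted p = 0.0524 to 0.23. Also lost were the calls of H2-DMa (only arrays of lower background) and Cd74 (probe set of highest variance or only arrays of lower background), at adjusted p = 0.0503 to 0.117.

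Lysosomal and iron genes that phagocytes use were lower for a part of their members. Of all genes 4.05% were called lower and 1.64% higher. Of 17 genes of the vacuolar proton pump 5 were called lower and 0 higher, and all 17 differences lay below 0 (median -0.32). Beside Atp6v0d2 these were Atp6v0a1 (-0.88 ± 0.15), Tcirg1 (-0.53 ± 0.11), Atp6v1b2 (-0.58 ± 0.13) and Atp6v1a (-0.62 ± 0.15). Of 34 genes of cathepsins, hydrolases and lysosomal membrane proteins 9 were called lower (median -0.28), among them the protease inhibitor gene Cstb (-1.11 ± 0.14), the galactosidase gene Gla (-0.80 ± 0.12) and the progranulin gene Grn (-0.48 ± 0.091). Lysosomal lipid handling was represented by Lipa, the acid lipase that frees cholesterol from esters, which fell by 0.93 ± 0.12 (adjusted p = 0.000815). Npc2, which carries cholesterol out of lysosomes, fell by 0.71 ± 0.14 (adjusted p = 0.00749), and Nceh1, a cholesteryl ester hydrolase, fell by 1.34 ± 0.21 (adjusted p = 0.00213). Of 17 genes of cholesterol efflux and storage 4 were called lower, these 3 and the phospholipid transfer protein gene Pltp (-0.73 ± 0.16), and 1 higher, Cyp27a1, which hydroxylates cholesterol (0.62 ± 0.14, adjusted p = 0.0202). The exporters Abca1 (0.24 ± 0.10) and Abcg1 (0.026 ± 0.23) were not called. Of 15 iron genes 3 were called lower, Tfr2, the heme oxygenase gene Hmox1 (-1.18 ± 0.20) and the heme transporter gene Slc48a1 (-0.41 ± 0.10). The macrophage marker mean, 10.7 to 11.2 in WT and 9.71 to 10.3 in EKO, moved with these genes, and its part in the result was not tested. The iron count was 5 without WT replicate 1. The proton pump count was 2 without WT replicate 2 or 3, and the count of cathepsins and hydrolases was 5 without WT replicate 3. With 1 array left out (named in brackets), the call ended for Npc2 and Pltp (WT replicate 3), Tcirg1 and Atp6v1b2 (WT replicate 2 or 3), Cyp27a1 (WT replicate 2 or 3 or EKO replicate 4), Atp6v1a (WT replicate 2 or 3 or EKO replicate 1 or 3) and Slc48a1 (WT replicate 2 or 3 or any EKO array), at adjusted p = 0.0505 to 0.196. Under another setting (in brackets) the call ended for Atp6v1a (only the 7 Western arrays) and Pltp and Slc48a1 (only arrays of lower background), at adjusted p = 0.0714 to 0.0926.

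Most listed genes of dividing cells were lower in EKO. Of 24 genes of mitosis and the cell cycle 18 were called lower, 0 higher, and all 24 differences lay below 0 (median -0.57; -0.013 on normal diet). The proliferation marker Mki67 stood at 8.84, 9.29 and 9.32 in WT and 7.92, 7.81, 8.07 and 7.77 in EKO, and fell by 1.26 ± 0.12 (adjusted p = 4.07e-05). Ccna2, a cyclin of S phase and mitosis, was at 7.97, 9.05 and 9.25 in WT and 7.36, 7.23, 7.74 and 7.21 in EKO (-1.37 ± 0.23, adjusted p = 0.0029). WT replicate 1 was the lowest of the 3 WT arrays for both genes, and still above every EKO array. Plk1, a mitotic kinase, was at background in EKO and at least 2.11-fold lower than in WT (adjusted p = 0.00219). The topoisomerase gene Top2a fell by 1.15 ± 0.18 (adjusted p = 0.00254) on the brighter of its 2 probe sets, while the other gave 0.078, and the mitotic motor gene Kif11 fell by 1.06 ± 0.19 (adjusted p = 0.00472). The mitotic cyclin gene Ccnb2 was called at -0.96 ± 0.16 and the kinase gene Cdk1 at -0.98 ± 0.18. Spc25, a kinetochore gene outside the list, was at background in EKO and at least 2.28-fold lower than in WT (adjusted p = 1.89e-06). Of 24 genes of DNA replication 7 were called lower, with all 24 differences below 0 (median -0.33), led by the ribonucleotide reductase gene Rrm2 (-0.89 ± 0.15, adjusted p = 0.00312). Which cells divided is not given by bulk RNA; the macrophage marker mean moved the same way (10.7 to 11.2 in WT, 9.71 to 10.3 in EKO), and its part was not tested. The cell division count was 9 without WT replicate 2 and 8 without WT replicate 3, and the DNA replication count was 16 without WT replicate 1, 2 without WT replicate 2, 1 without WT replicate 3, 4 without EKO replicate 1 or 2 and 3 without EKO replicate 4. Each named call held with each array left out.

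The promoters of 4 of these genes are shown because a shared pair of short motifs stands in them. Promoters of cell division genes are known for the CCAAT box, bound by NF-Y, and for the cell cycle homology region TTTGAA, through which such genes are held silent outside division. Both were searched as letters on both strands in the 250 bases before the transcription start, from RefSeq promoters of GRCm38.p6. Of the 14 called cell division genes with a promoter in the table, 12 (85.7%) held CCAAT and 7 (50%) held TTTGAA. Over the whole list, called or not, the numbers were 16 of 20 (80%) and 8 of 20 (40%). Among the 15613 measured genes with a promoter the shares were 38.8% and 15.7%. The shares were given no test, and a match is a description only. Each sequence runs 5′ to 3′ along the gene and ends at the base before the start, with both motifs and their reverse complements in capitals.
Mki67, chr7:135716380-135716629, minus strand: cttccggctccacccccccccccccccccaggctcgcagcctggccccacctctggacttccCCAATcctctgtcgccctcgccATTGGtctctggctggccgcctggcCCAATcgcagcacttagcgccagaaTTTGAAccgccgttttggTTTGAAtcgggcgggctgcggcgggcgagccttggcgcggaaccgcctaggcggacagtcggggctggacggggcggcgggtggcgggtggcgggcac
Top2a, chr11:99024190-99024439, minus strand: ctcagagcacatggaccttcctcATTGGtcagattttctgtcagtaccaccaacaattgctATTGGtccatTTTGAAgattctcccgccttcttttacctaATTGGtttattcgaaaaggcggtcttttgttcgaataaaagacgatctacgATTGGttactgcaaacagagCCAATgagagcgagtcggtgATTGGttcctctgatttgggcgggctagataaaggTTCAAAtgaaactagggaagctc
Ccnb2, chr9:70421555-70421804, minus strand: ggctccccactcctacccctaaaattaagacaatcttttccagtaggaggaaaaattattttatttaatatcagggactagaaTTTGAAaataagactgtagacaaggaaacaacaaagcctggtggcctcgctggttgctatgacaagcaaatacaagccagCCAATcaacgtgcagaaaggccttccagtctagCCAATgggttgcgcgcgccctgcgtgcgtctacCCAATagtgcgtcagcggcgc
Kif11, chr19:37376132-37376381, plus strand: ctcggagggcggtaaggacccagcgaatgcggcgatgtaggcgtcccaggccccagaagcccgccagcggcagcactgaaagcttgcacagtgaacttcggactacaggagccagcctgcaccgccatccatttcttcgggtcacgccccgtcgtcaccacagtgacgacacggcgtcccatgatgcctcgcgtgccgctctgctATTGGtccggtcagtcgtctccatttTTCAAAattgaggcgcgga
In Kif11 the TTTGAA match on the opposite strand begins 19 bases and the CCAAT match 45 bases before the start, and Top2a holds 6 CCAAT matches.

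Part of the genes of cholesterol synthesis was lower in EKO. Of 24 measured genes of the pathway and its SREBP2 control 9 were called lower and 0 higher (median -0.68; 0.044 on normal diet). Dhcr7, which makes cholesterol in the last step, stood at 9.71, 10.60 and 10.94 in WT and 8.57, 9.10, 9.03 and 8.99 in EKO (-1.49 ± 0.22, adjusted p = 0.00159). Lss, which closes the sterol rings, was at 9.82, 11 and 11.25 in WT and 8.45, 9.54, 9.42 and 9.36 in EKO (-1.5 ± 0.30, adjusted p = 0.00929). In both genes WT replicates 2 and 3 were high and WT replicate 1 lay between them and the EKO arrays. Hsd17b7 fell by 1.47 ± 0.22 (adjusted p = 0.00168), Cyp51, which removes a methyl group from lanosterol, fell by 1.47 ± 0.35 (adjusted p = 0.0251), and Sqle, squalene epoxidase, fell by 1.12 ± 0.24 (adjusted p = 0.0156). Fdps, which makes farnesyl diphosphate, fell by 1.12 ± 0.23 (adjusted p = 0.0105) and Nsdhl fell by 0.95 ± 0.23 (adjusted p = 0.0282). The isomerase gene Ebp (-0.78 ± 0.13) and the reductase gene Tm7sf2 (-0.65 ± 0.15) were also called lower. The early enzyme gene Hmgcs1 (-0.72 ± 0.28, adjusted p = 0.166) and the regulator gene Srebf2 (-0.23 ± 0.16, adjusted p = 0.474) were not called. The macrophage marker mean was lower in EKO as well (10.7 to 11.2 in WT, 9.71 to 10.3 in EKO), and its part here was not tested. The count was 14 without WT replicate 1 and 3 without WT replicate 2 or 3, and within the arrays of lower background 16 of the 24 were called lower. Calls that ended once 1 array was left out were those of Lss, Sqle, Fdps and Tm7sf2 (WT replicate 2 or 3), Nsdhl (WT replicate 2 or 3 or EKO replicate 4) and Cyp51 (WT replicate 2 or 3 or EKO replicate 1 or 4), at adjusted p = 0.0514 to 0.171. Other settings ended the call of Nsdhl (only the 7 Western arrays), at adjusted p = 0.0849.

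Promoters of cholesterol enzymes combine a sterol response element with CCAAT boxes, and 4 of the called genes are shown for the latter. Of the 7 called genes with a promoter in the table all 7 held CCAAT in the 250 bases before the start, and 19 of 20 (95%) over the whole list, against 38.8% of all measured genes with a promoter. The sterol element was searched on both strands as TCACNCCAC, and it was found in 0 of the 9 promoters of these 7 genes, 1 of the 26 promoters of the list (a gene can have several) and 1.01% of all 19176 promoters. CCAAT and its reverse complement are in capitals.
Dhcr7, chr7:143829964-143830213, plus strand: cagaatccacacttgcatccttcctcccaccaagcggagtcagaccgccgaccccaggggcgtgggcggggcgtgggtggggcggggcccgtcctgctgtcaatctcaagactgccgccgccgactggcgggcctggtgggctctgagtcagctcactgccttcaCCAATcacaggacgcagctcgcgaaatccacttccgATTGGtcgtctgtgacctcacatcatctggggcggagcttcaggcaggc
Hsd17b7, chr1:169969206-169969455, minus strand: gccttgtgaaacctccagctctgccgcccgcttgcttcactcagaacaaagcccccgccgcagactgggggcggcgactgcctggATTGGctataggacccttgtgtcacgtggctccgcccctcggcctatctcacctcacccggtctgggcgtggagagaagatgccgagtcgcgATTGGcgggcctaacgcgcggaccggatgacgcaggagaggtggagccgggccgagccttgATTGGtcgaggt
Ebp, chrX:8193513-8193762, minus strand: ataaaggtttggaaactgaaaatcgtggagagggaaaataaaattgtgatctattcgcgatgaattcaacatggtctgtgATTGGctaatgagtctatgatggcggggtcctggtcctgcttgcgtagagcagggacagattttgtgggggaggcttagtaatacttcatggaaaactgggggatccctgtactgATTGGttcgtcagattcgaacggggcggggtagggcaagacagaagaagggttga
Lss, chr10:76531355-76531604, plus strand: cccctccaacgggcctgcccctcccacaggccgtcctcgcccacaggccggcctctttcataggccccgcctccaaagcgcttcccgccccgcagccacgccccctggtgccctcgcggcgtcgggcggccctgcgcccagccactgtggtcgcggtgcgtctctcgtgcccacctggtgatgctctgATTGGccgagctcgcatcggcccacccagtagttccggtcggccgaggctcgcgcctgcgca
The CCAAT match nearest the start begins 49 bases before it in Dhcr7, 12 bases in Hsd17b7, 55 bases in Ebp and 62 bases in Lss.

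Messenger RNAs of the extracellular matrix were lower in EKO for part of the members. Of 20 collagen genes 10 were called lower and 0 higher (median -0.50; -0.11 on normal diet). Col6a3, whose product surrounds fat cells, fell by 0.75 ± 0.15 (adjusted p = 0.00913) and Col6a1 fell by 1.01 ± 0.22 (adjusted p = 0.0152). The fibrillar collagen gene Col1a1 was at 10.82, 10.98 and 11.03 in WT and 10.33, 10.13, 10.46 and 10.37 in EKO (-0.62 ± 0.10, adjusted p = 0.00278), and the groups were apart by a small margin. The basement membrane collagen gene Col4a1 was at -0.64 ± 0.13, Col3a1 at -0.63 ± 0.17 and Col12a1 at -1.20 ± 0.17. Of 31 genes of matrix enzymes and matricellular proteins 12 were called lower and 0 higher (median -0.40). Lox, which crosslinks collagen, stood at 11.03, 11.32 and 11.46 in WT and 9.23, 9.47, 9.62 and 9.68 in EKO (-1.77 ± 0.23, adjusted p = 0.000727). Timp1, an inhibitor of matrix proteases, fell by 1.92 ± 0.27 (adjusted p = 0.00122), the protease gene Adam8 fell by 1.70 ± 0.17 (adjusted p = 7.66e-05) and Lum, a collagen-binding proteoglycan, fell by 1.54 ± 0.26 (adjusted p = 0.00332). Mrc2, an endocytic collagen receptor that is in no list, fell by 2.0 ± 0.12 (adjusted p = 3.55e-07). Fap, a protease of activated fibroblasts, fell by 0.93 ± 0.14 (adjusted p = 0.00198). The progenitor marker mean (3 genes), for the cells that make most of the matrix, was 9.79 to 9.89 in WT and 9.82 to 10.2 in EKO, and the macrophage marker mean was lower in EKO as given above; their part was not tested. The collagen count was 3 without WT replicate 2 or 3, and that of matrix enzymes was 6 without WT replicate 2 or EKO replicate 4, 5 without WT replicate 3 and 7 without EKO replicate 1, with 2 higher without WT replicate 1. Leaving out 1 array ended the call of Col6a3, Col6a1 and Col4a1 (WT replicate 2 or 3) and Col3a1 (WT replicate 2 or 3 or any EKO array), at adjusted p = 0.0542 to 0.206.

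Several acute phase proteins that fat secretes were lower in EKO. Of 21 genes of the acute phase and complement 8 were called lower and 1 higher (median -0.33). Saa3, a serum amyloid of fat cells and macrophages, stood at 10.37, 11.21 and 10.89 in WT and 8.51, 8.98, 8.58 and 8.86 in EKO (-2.09 ± 0.30, adjusted p = 0.00125). Hp, haptoglobin, fell by 1.51 ± 0.21 (adjusted p = 0.001), Lbp, a binder of bacterial lipopolysaccharide, fell by 1.26 ± 0.27 (adjusted p = 0.0148) and Orm2, an orosomucoid, fell by 1.09 ± 0.18 (adjusted p = 0.00303). Orm3, a gene of the orosomucoid family outside the list, rose by 1.51 ± 0.22 (adjusted p = 0.00127); the paralogs are similar in sequence, and probes may read more than 1 of them. The anaphylatoxin receptor genes C5ar1 (-1.34 ± 0.18) and C3ar1 (-1.19 ± 0.20) and the complement factor gene Cfb (-0.84 ± 0.14) were lower, while C2, a complement protease, was higher (0.75 ± 0.17, adjusted p = 0.0171). WT replicate 1, the array with liver transcripts, was the lowest WT array for Saa3, Hp, Lbp and Orm2, and these 4 calls held without it. The macrophage marker mean was lower in EKO too (10.7 to 11.2 in WT, 9.71 to 10.3 in EKO), and its part was not tested. The named calls that did not hold without 1 array were those of Lbp (WT replicate 2 or 3) and C2 (WT replicate 2 or 3 or EKO replicate 2 or 4), at adjusted p = 0.051 to 0.101.

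The largest rises in EKO included several metabolic genes of the fat cell. Acsm3, a medium-chain acyl-CoA synthetase, stood at 7.27, 7.37 and 7.24 in WT and 10.26, 10.58, 9.69 and 10.54 in EKO. The 3 WT arrays were alike and all EKO arrays were far above them, a difference of 2.97 ± 0.50, adjusted p = 0.00341. Fam13a, a gene tied to fat distribution, was at 10.21, 9.08 and 8.95 and 12.43, 12.44, 11.54 and 12.16 (2.73 ± 0.41, adjusted p = 0.00168). Ces1f, a carboxylesterase, was at 9.90, 9.36 and 9.26 and 11.91, 12.04, 11.59 and 11.98 (2.38 ± 0.28, adjusted p = 0.000285), and Ces1d, a triglyceride hydrolase of fat cells, rose by 1.37 ± 0.12. The adhesion receptor gene Adgrg2, which the epididymis also expresses, rose by 2.04 ± 0.16 (adjusted p = 8.06e-06), while the 5 epididymal markers were near background in both groups. Dennd2d (1.83 ± 0.22), the sialyltransferase gene St6galnac5 (1.5 ± 0.24), the glutamate transporter gene Slc1a3 (1.35 ± 0.29), the engulfment adaptor gene Gulp1 (1.32 ± 0.31) and the imprinted gene Nnat (1.29 ± 0.25) were among the 15 largest rises. The array mean of the 5 fat cell markers was 13.3 to 13.5 in WT and 13.3 to 13.4 in EKO. Of these markers 1 was called higher, Adipoq, and 1 lower, Lep, and such opposite changes can offset each other in the mean. Marker means of endothelium (10.41 to 10.7 in WT, 10.71 to 10.98 in EKO) and mesothelium (9.52 to 9.72 and 10.03 to 10.31) were higher in EKO, and their part in these rises was not tested. Cyp2e1, a cytochrome P450 that liver and fat cells both express, stood at 12.67, 12.80 and 12.65 in WT and 14.03, 14.11, 13.91 and 14.05 in EKO (1.32 ± 0.13, adjusted p = 6.58e-05). Without 1 array in turn, limma no longer called Slc1a3 and Nnat (WT replicate 2 or 3) and Gulp1 (WT replicate 2 or 3 or EKO replicate 2 or 4), at adjusted p = 0.0502 to 0.123.

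Hormones that fat cells secrete moved in both directions. Lep, leptin, which rises with fat mass, stood at 13.21, 13.47 and 13.31 in WT and 11.72, 12.21, 12.48 and 12.32 in EKO. All 4 EKO arrays lay below all WT arrays, and Lep fell by 1.14 ± 0.26 (adjusted p = 0.0178), a 2.21-fold lower level. Adipoq, adiponectin, was higher (0.46 ± 0.085, adjusted p = 0.00586), as were Agt, angiotensinogen (1.41 ± 0.18, adjusted p = 0.000568), Nrg4, a neuregulin of fat (1.10 ± 0.13, adjusted p = 0.000263) and Retn, resistin (0.34 ± 0.081, adjusted p = 0.0235). Metrnl, meteorin-like, was lower (-0.59 ± 0.10, adjusted p = 0.00365). In all, 4 of 16 adipokine genes were called higher and 2 lower, beside 1.64% and 4.05% of all genes. Of 28 markers of fat cell identity 2 were higher, the transcription factor gene Ebf1 (0.48 ± 0.098) and the insulin-responsive glucose transporter gene Slc2a4 (0.58 ± 0.12), and 1 lower, Zfp423 (-0.34 ± 0.088). The list median was 0.20, and Pparg, the master regulator of fat cells, had a difference of 0.26 ± 0.12, adjusted p = 0.23. On leaving out 1 array the call was lost for Ebf1 and Slc2a4 (WT replicate 3), Lep (WT replicate 2 or 3 or EKO replicate 1), Retn (WT replicate 3 or EKO replicate 2, 3 or 4) and Zfp423 (WT replicate 2 or 3 or any EKO array), at adjusted p = 0.0527 to 0.212. The call also ended for Retn (only the 7 Western arrays or only arrays of lower background) and Zfp423 (only the 7 Western arrays or quantile normalization or trend and robust variance or only arrays of lower background), at adjusted p = 0.052 to 0.201.

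Genes of insulin signalling and glucose use were called in both directions, beside 1.64% of all genes called higher and 4.05% lower. Of 26 insulin signalling genes 3 were higher: the receptor gene Insr (0.51 ± 0.10, adjusted p = 0.0114), the substrate gene Irs1 (0.76 ± 0.21, adjusted p = 0.0453; 0.32 on its other probe set) and Pde3b, the phosphodiesterase by which insulin restrains lipolysis (0.70 ± 0.11, adjusted p = 0.00289). Grb14, an inhibitor of the insulin receptor, was lower (-0.76 ± 0.18, adjusted p = 0.0215). Of 27 genes of glucose uptake, glycolysis and glyceroneogenesis 4 were higher and 3 lower. Pck1, the key enzyme of glyceroneogenesis, which insulin represses, stood at 12.20, 11.59 and 11.35 in WT and 13.30, 13.02, 13.16 and 13.27 in EKO (1.48 ± 0.20, adjusted p = 0.000899); every EKO array lay above every WT array. The lactate dehydrogenase gene Ldhb (0.53 ± 0.12) and the glucose transporter genes Slc2a3 (0.67 ± 0.17) and Slc2a4 (0.58 ± 0.12) were higher. The glycolytic gene Tpi1 (-0.80 ± 0.18), the leukocyte hexokinase gene Hk3 (-0.48 ± 0.084) and Gpd1, which makes glycerol phosphate (-0.44 ± 0.12), were lower. The counts of higher genes were 1 without WT replicate 3 for insulin signalling and 2 without WT replicate 2 or EKO replicate 2 or 4 and 1 without WT replicate 3 for glucose genes. The counts of lower genes were 2 without WT replicate 1 for insulin signalling, and 6 without WT replicate 1 and 1 without WT replicate 2 or 3 for glucose genes. With 1 array left out (named in brackets), the call ended for Insr and Slc2a4 (WT replicate 3), Tpi1 (WT replicate 2 or 3), Grb14 (WT replicate 3 or EKO replicate 1 or 2), Irs1 and Slc2a3 (WT replicate 2 or 3 or EKO replicate 1, 2 or 4), Gpd1 (WT replicate 2 or 3 or EKO replicate 1, 3 or 4) and Ldhb (WT replicate 2 or 3 or EKO replicate 2, 3 or 4), at adjusted p = 0.0514 to 0.275. Also lost were the calls of Insr (probe set of highest variance), Tpi1 (only the 7 Western arrays) and Gpd1 (only the 7 Western arrays or quantile normalization or only arrays of lower background), at adjusted p = 0.0544 to 0.106.

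Branched-chain amino acids are fuel and lipid precursor for fat cells. In their breakdown, of 22 genes 8 were called higher and 0 lower (median 0.44; 0.016 on normal diet), beside 1.64% of all genes called higher. Bckdhb, a subunit of the dehydrogenase that commits these amino acids to oxidation, stood at 11.09, 10.95 and 10.88 in WT and 11.74, 11.75, 11.59 and 11.81 in EKO (0.75 ± 0.096, adjusted p = 0.000581). The other called genes act at the same or later steps: Dbt (0.61 ± 0.11), Ivd of the leucine branch (0.86 ± 0.14), Acadsb of the isoleucine branch (0.49 ± 0.13), Hsd17b10 (0.59 ± 0.13), and Hibch (0.65 ± 0.15), Hibadh (0.43 ± 0.083) and Aldh6a1 (0.79 ± 0.13) of the valine branch. The count was 5 without WT replicate 2 or 3 or EKO replicate 2 or 4, and with the background block it was 12; without WT replicate 1 or 2 1 gene was called lower. Calls that ended once 1 array was left out were those of Hibadh (WT replicate 2), Hsd17b10 (WT replicate 3 or EKO replicate 2 or 4), Hibch (WT replicate 2 or 3 or EKO replicate 2 or 4) and Acadsb (any array), at adjusted p = 0.0535 to 0.213. Under another setting (in brackets) the call ended for Hibadh (mean of probe sets or probe set of highest variance), at adjusted p = 0.114 to 0.47.

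Lipid metabolism gave calls in both directions, beside 1.64% of all genes called higher and 4.05% lower. Of 19 genes of lipolysis and the lipid droplet coat 3 were higher (Ces1f, Ces1d and Pde3b) and 1 lower, Plin2, a droplet coat protein of macrophages and other cells (-0.73 ± 0.12, adjusted p = 0.00284). The main triglyceride lipase gene Pnpla2 (0.37 ± 0.11, adjusted p = 0.0768) and Lipe, the hormone-sensitive lipase (0.11 ± 0.083, adjusted p = 0.512), were not called. Without WT replicate 1, 5 were higher. Of 19 genes of triglyceride synthesis the acyltransferase gene Mogat1 was higher (1.28 ± 0.22, adjusted p = 0.00379) and its relative Mogat2 (-1.18 ± 0.29, adjusted p = 0.0299) and Gpd1 lower. For fatty acid binding and activation 3 of 17 were higher: Acsm3, Acsm5 (1.06 ± 0.21) and Acss3 (0.73 ± 0.14), all acyl-CoA synthetases, and Vldlr was lower (2 genes without WT replicate 1). In lipogenesis 1 of 20 was called, the desaturase gene Fads1 (0.58 ± 0.15, adjusted p = 0.0363), while Fasn (-0.15 ± 0.20) and Scd1 (0.073 ± 0.079) were not. Fatty acid oxidation had 3 of 24 genes higher, Hadh (0.35 ± 0.082), Crat (0.41 ± 0.11) and Echs1 (0.55 ± 0.15). In the respiratory chain 1 of 34 was called, Uqcrc2 (0.42 ± 0.11, adjusted p = 0.043), while 31 of 34 differences lay above 0 (median 0.20, beside 0.033 over all genes). Of 20 genes of sphingolipid synthesis 3 were lower: the ceramide kinase gene Cerk (-0.74 ± 0.13), the ceramide synthase gene Cers4 (-0.78 ± 0.17) and the desaturase gene Degs1 (-0.54 ± 0.13). Leaving out 1 array ended the call of Acss3 (WT replicate 3), Acsm5, Vldlr and Cers4 (WT replicate 2 or 3), Hadh (WT replicate 2 or 3 or EKO replicate 2 or 4), Degs1 (WT replicate 2 or 3 or EKO replicate 1, 2 or 4), Gpd1 (WT replicate 2 or 3 or EKO replicate 1, 3 or 4), Crat (any WT array or EKO replicate 1, 2 or 4), Fads1, Echs1 and Uqcrc2 (any WT array or EKO replicate 2, 3 or 4) and Mogat2 (WT replicate 2 or 3 or any EKO array), at adjusted p = 0.0502 to 0.275. Other settings ended the call of Gpd1 (only the 7 Western arrays or quantile normalization or only arrays of lower background), Fads1, Hadh and Degs1 (only the 7 Western arrays), Echs1 (only arrays of lower background) and Uqcrc2 (only the 7 Western arrays or equal array medians or only arrays of lower background), at adjusted p = 0.0511 to 0.0983.

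Glutathione and antioxidant genes were mostly higher where they were called: 6 of 28 were higher and 2 lower. Over all genes 1.64% were called higher and 4.05% lower. The glutathione transferase gene Gsta4, whose enzyme clears lipid aldehydes, stood at 8.62, 8.81 and 8.76 in WT and 9.80, 10.36, 10.09 and 10.17 in EKO (1.37 ± 0.17, adjusted p = 0.00038). Gstt1 (0.93 ± 0.13), Gsta3 (0.85 ± 0.20), Mgst1 (0.52 ± 0.13) and the peroxidase genes Gpx3 (0.94 ± 0.16) and Gpx1 (0.40 ± 0.10) were higher. Those lower were Hmox1 and Sod2, the mitochondrial superoxide dismutase (-0.55 ± 0.14, adjusted p = 0.0306). In the stress response of the endoplasmic reticulum 1 of 25 genes was higher, the asparagine synthetase gene Asns (1.06 ± 0.10, adjusted p = 4.62e-05), and 3 lower, the stress factor gene Atf3 (-1.44 ± 0.22, adjusted p = 0.00173) and the chaperone genes Hspa5 (-0.51 ± 0.13) and Sdf2l1 (-0.78 ± 0.13). The count of higher antioxidant genes was 3 without WT replicate 2 or 3 or EKO replicate 2 or 4. The named calls that did not hold without 1 array were those of Sod2 (WT replicate 2 or 3 or EKO replicate 1 or 4), Gpx1 and Hspa5 (WT replicate 2 or 3 or EKO replicate 1, 2 or 4) and Gsta3 and Mgst1 (WT replicate 2 or 3 or EKO replicate 2, 3 or 4), at adjusted p = 0.053 to 0.208. The call also ended for Gpx1 (only the 7 Western arrays or only arrays of lower background) and Sod2 and Hspa5 (only the 7 Western arrays), at adjusted p = 0.0565 to 0.0916.

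**Figure D3:**
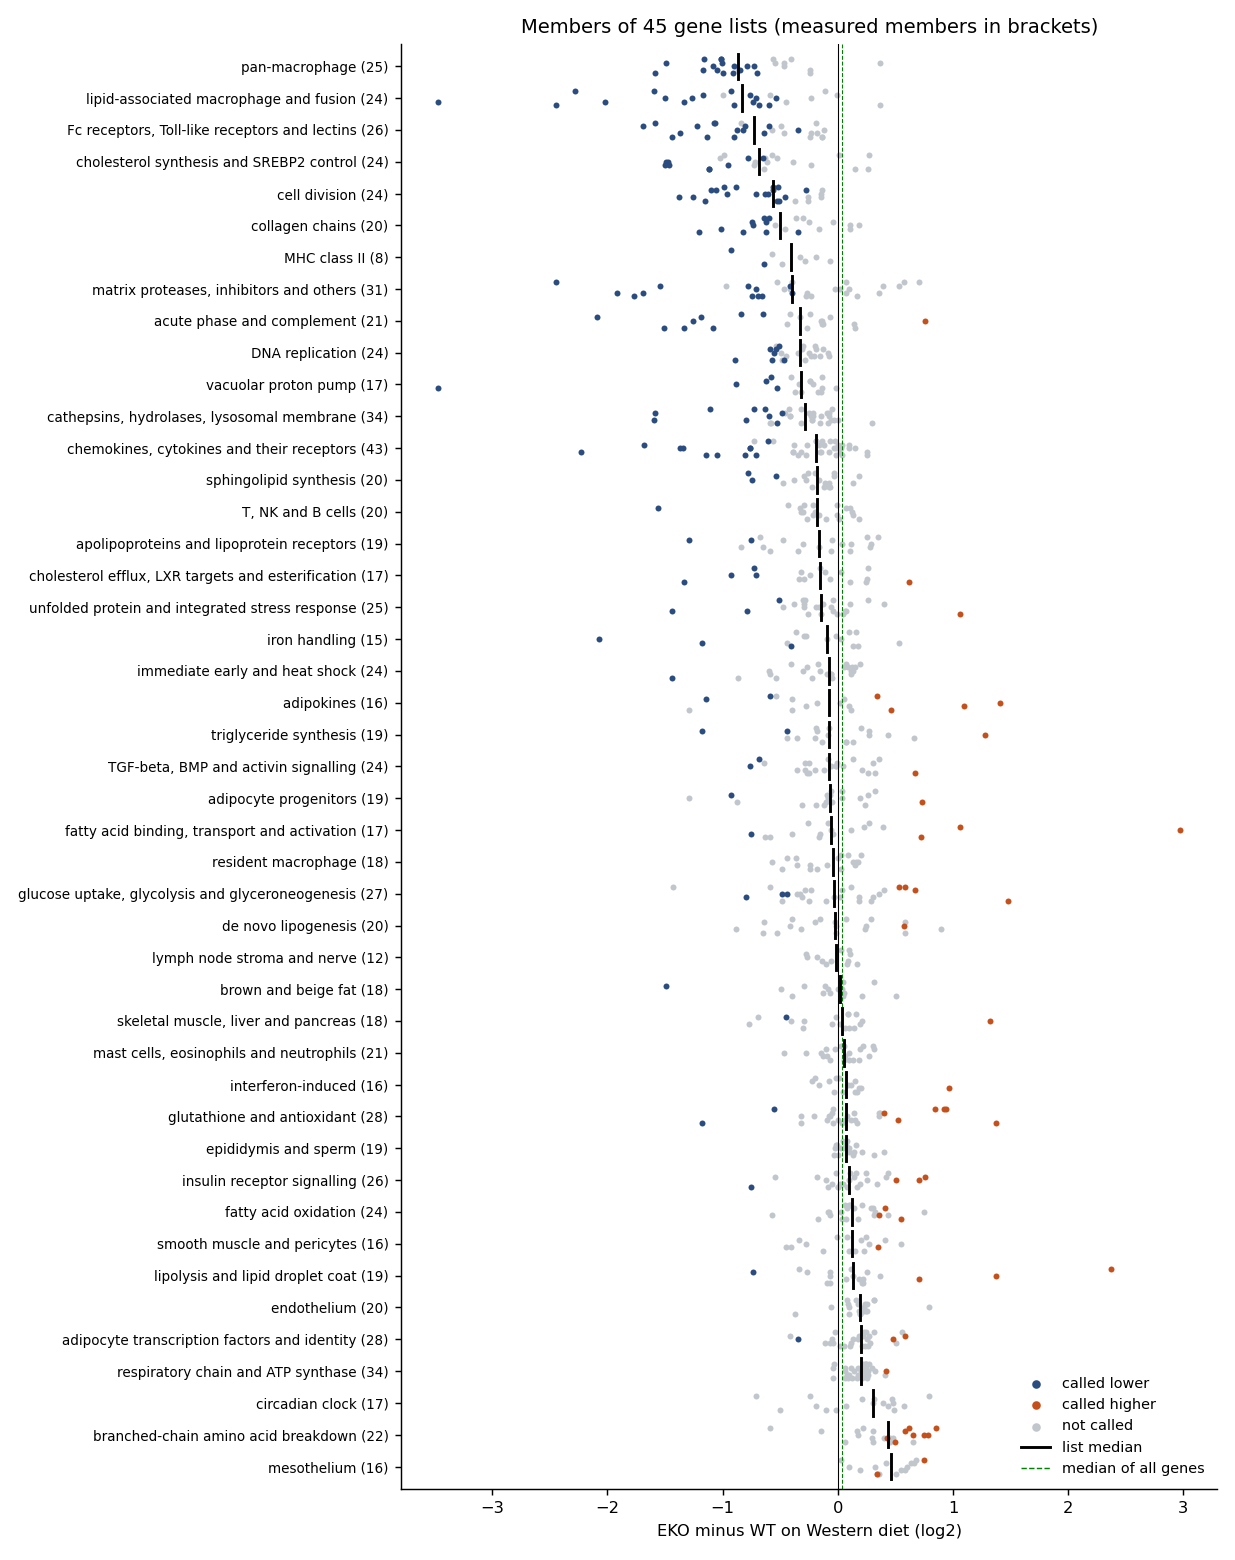
Difference between EKO and WT on Western diet (x axis, log2) for each measured member of 45 gene lists (y axis, ordered by list median); blue and orange points are genes called lower and higher, grey points genes not called, black bars list medians and the dashed line the median of all genes. The macrophage, receptor, cholesterol synthesis, cell division and collagen lists stand at the top with the lowest medians, from -0.87 to -0.50, and the mesothelium and branched-chain amino acid lists at the bottom with 0.46 and 0.44.

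Mesothelium covers the depot, and vessels run through it. Beside the counts of calls in this paragraph, 1.64% of all genes were called higher and 4.05% lower. All 16 mesothelial genes had differences above 0 (median 0.46), and 12 had EKO ranges above the WT ranges, beside 7.93% of all genes; 2 were called, the uroplakin gene Upk3b (0.75 ± 0.17, adjusted p = 0.0218) and the keratin gene Krt18 (0.34 ± 0.074, adjusted p = 0.0157). On normal diet the same list had a median of -0.39, the other direction. The array mean of 4 mesothelial markers was 9.52 to 9.72 in WT and 10.03 to 10.31 in EKO. The part of this surface layer in the result was not tested. The mesothelial count was 8 with the background block, and 0 without WT replicate 2 or 3 and 1 without EKO replicate 1 or 4. The endothelial marker mean, given above, was higher in every EKO array than in every WT array, yet none of 20 endothelial genes was called by limma, with 4 higher and 0 lower at an unadjusted p under 0.05; the thrombomodulin gene Thbd was at 0.79 ± 0.27, adjusted p = 0.113. Of 16 genes of smooth muscle and pericytes 1 was called, Lmod1 (0.35 ± 0.081, adjusted p = 0.0203), a gene of smooth muscle filaments that was higher in EKO. Of 19 genes of fat cell progenitors Ebf2 was higher (0.73 ± 0.14, adjusted p = 0.00627) and Fap lower. In the list of brown and beige fat the only call was Otop1, a proton channel, which was lower (-1.49 ± 0.14, adjusted p = 4.91e-05), and Ucp1, the heat-making uncoupler, had a difference of 0.0031 ± 0.074, adjusted p = 0.987. Without WT replicate 1 the counts of lower genes were 2 for progenitors, 2 for brown and beige fat and 1 for smooth muscle. Without 1 array in turn, limma no longer called Krt18 (WT replicate 2 or 3), Lmod1 (WT replicate 2 or 3 or EKO replicate 1) and Upk3b (WT replicate 2 or 3 or EKO replicate 1 or 4), at adjusted p = 0.0505 to 0.145. Also lost were the calls of Krt18 and Lmod1 (only the 7 Western arrays), at adjusted p = 0.059 to 0.0725.

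Further lists mark handling, time of day and neighbouring tissue. Beside their counts, 1.64% of all genes were called higher and 4.05% lower. Of 24 immediate early and heat shock genes 1 was called (Atf3). None of 17 clock genes was called by limma, with 5 higher and 1 lower at an unadjusted p under 0.05 and a median of 0.30; the clock repressor gene Nr1d1 was at 0.49 ± 0.15, adjusted p = 0.0795. None of 19 genes of epididymis and sperm was called (1 higher and 0 lower at an unadjusted p under 0.05), nor any of 12 genes of lymph node and nerve (0 and 2). Of 18 genes of skeletal muscle, liver and pancreas 2 were called, Cyp2e1 higher and the elastase gene Cela1 lower (-0.45 ± 0.091, adjusted p = 0.0104). With only the arrays of lower background, 6 clock genes were called higher and 1 lower (519 and 1097 over all genes). Without WT replicate 1 the clock list had 2 higher and 1 lower gene, the early gene list 2 lower, the list of muscle, liver and pancreas 2 higher, and that of lymph node and nerve 1 lower. On leaving out 1 array the call was lost for Cela1 (WT replicate 2 or 3), at adjusted p = 0.0698 to 0.0801.

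On normal diet the same genotype comparison gave 1 call, Apoe itself (0.00502% of genes tested; 226 genes had an unadjusted p under 0.05). Without WT replicate 1 of the normal diet 3 genes were called, and without EKO replicate 4 of that diet 2. Itgax was at 7.91 ± 0.17 in WT and 7.97 ± 0.35 in EKO there, Mki67 at 7.83 ± 0.11 and 7.87 ± 0.066, and Dhcr7 at 8.98 ± 0.14 and 8.96 ± 0.19. Acsm3 was at 9.78 ± 1.08 and 9.93 ± 1.05, and Pck1 at 13.09 ± 0.12 and 12.91 ± 0.39. For these 5 genes the EKO mice on Western diet lay near both normal diet groups, and the WT mice on Western diet stood apart from all 3 other groups. Of the 808 genes called lower on Western diet, 58.4% lay below 0 on normal diet, where 53.2% of all genes did. Of the 326 called higher, 60.7% lay above 0 on normal diet, where 46.8% of all genes did. The arrays of the normal diet are not shared with the Western comparison, but the spread was estimated over all 14.

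The difference between the diets was tested as well. For 96 genes (0.482% of those tested) the genotype difference was not the same on both diets, 67 with a lower and 29 with a higher value on Western diet. All 96 were among the 1134 called genes; the contrast contains the Western comparison, so this overlap is partly built in. Leaving out 1 array of the Western diet gave 499, 40 and 38 genes without WT replicates 1, 2 and 3, and 62, 61 and 43 without EKO replicates 1, 2 and 4. On normal diet it was 37 and 45 without WT replicates 2 and 3, and 57 and 148 without EKO replicates 1 and 2. By the smallest p the first 10 were Tfr2 (-1.98 ± 0.15, adjusted p = 4.53e-05), Mrc2 (-2.03 ± 0.16), Cdkl4 (-2.99 ± 0.28), Spc25 (-1.53 ± 0.15), Itgax (-2.09 ± 0.22), Fam122b (-1.5 ± 0.16), Adgrg2 (1.87 ± 0.23), Il7r (-2.25 ± 0.28), Mki67 (-1.30 ± 0.16) and the peroxisomal isomerase gene Eci3 (1.34 ± 0.17). Tfr2 was at 9.09, 9.05 and 9.42 in the WT arrays on Western diet and 7.23, 7.02, 7.01 and 7.21 in the EKO arrays. On normal diet Tfr2 was at 7.07 ± 0.027 in WT and 6.99 ± 0.16 in EKO, close to each other. In the lists, 5 of 24 lipid-associated macrophage genes, 3 of 26 receptors, 2 of 24 cell division genes and 0 of 24 cholesterol synthesis genes passed this test.

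**Figure D4:**
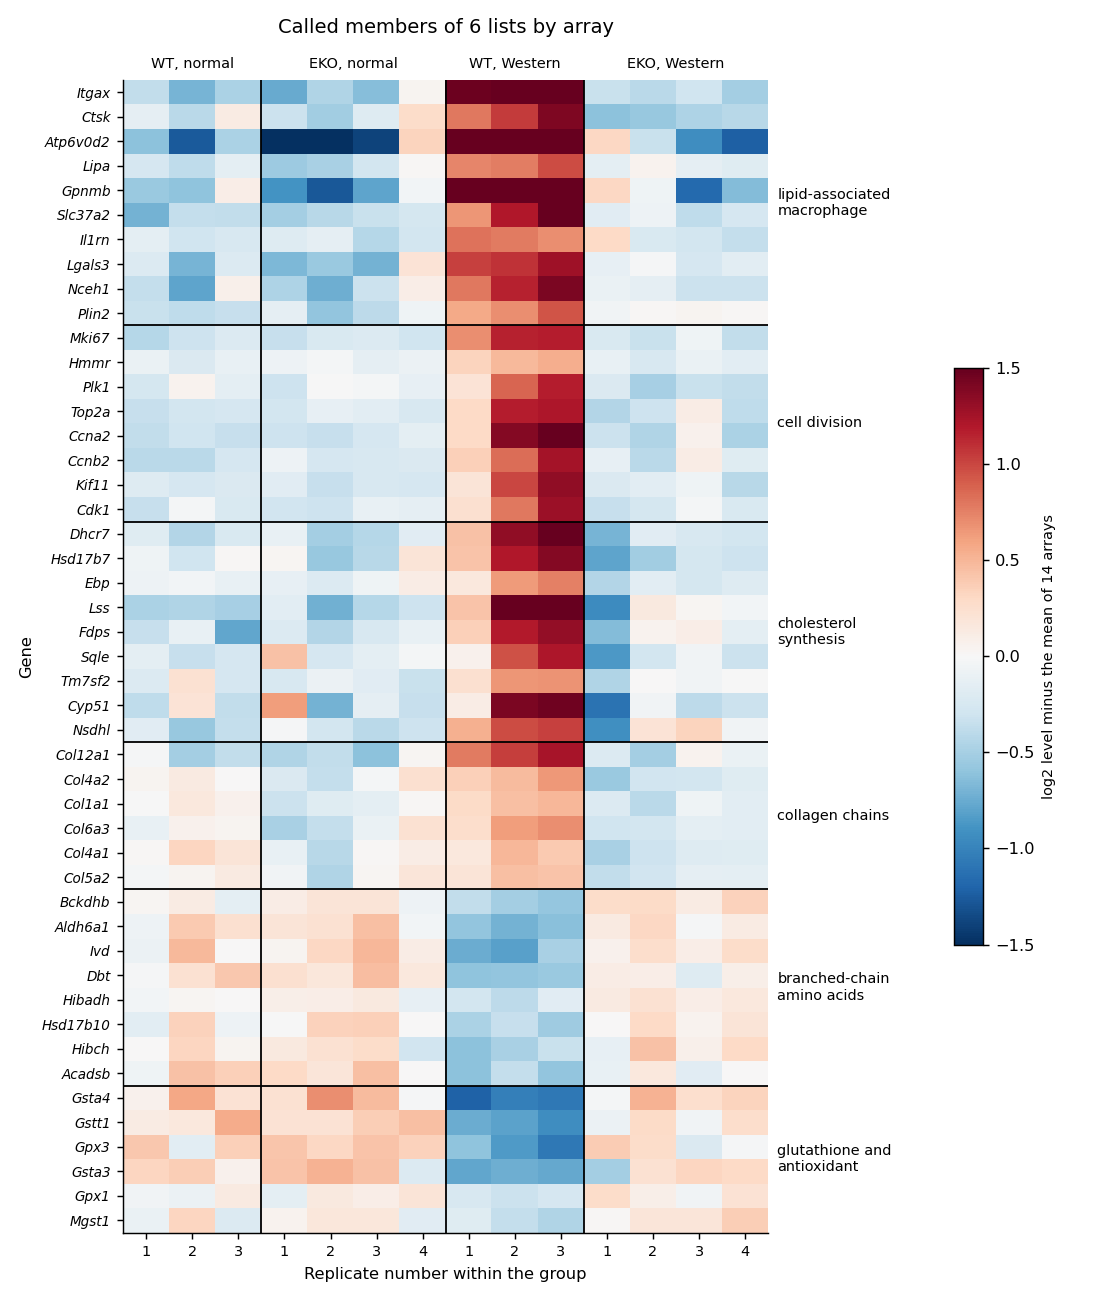
Log2 level minus the mean over 14 arrays (colour, full at 1.5 and -1.5) of called members of 6 lists (y axis, 6 to 10 per list, those with the smallest adjusted p) in each array (x axis, by group and replicate number). For macrophage, cell division, cholesterol synthesis and branched-chain amino acid genes the 3 WT arrays on Western diet are the ones that differ. WT replicate 1 is paler than replicates 2 and 3 for cell division and cholesterol synthesis. Over the whole collagen list the median change from normal to Western diet was 0.13 in WT and -0.082 in EKO.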

How the data were processed

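The authors deposited log2 values per probe set that had been processed with RMA, per the submitters' processing notes; its settings were not given in these sources. RMA normalizes between arrays, which can take out a shift that most genes share; in the deposited values the array medians still ran from 7.92 to 8.10. Of 34760 rows, 21640 carried 1 gene symbol and were used; 1321 with several symbols and 11799 with none were left out. Of the rows used 21553 matched the RefSeq gene table by Entrez ID, with 0 symbols changed. For 954 genes with more than 1 probe set the one with the highest mean over 14 arrays stood for the gene.

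Groups came from the labels. A linear model with 1 mean per group was fitted to the 14 arrays with limma 3.58.1 in R 4.3.3 (empirical Bayes, Benjamini-Hochberg adjustment over 19937 genes). On simulated data of this comparison 93% of genes changed by 1 and 47% of those changed by 0.5 (log2) were recovered, with 7 false calls. The simulated noise was drawn separately for each gene and array. It held no background split and no array with liver transcripts, so these numbers do not cover such array effects. Where 1 group mean lay at or below the highest array background, the fold is "at least" the other group mean over that group's mean with each of its arrays set to the higher of its own value and its own background. The text names Apoe, Lep and Nnt, the 15 largest rises and falls without overlap between groups, the 10 smallest p of the difference between diets, called neighbours of Apoe and up to 8 genes per list by p; small RNAs, predicted genes, antigen receptor segments and chemosensory receptors were passed over, and not every gene of the rule is printed. The comparison, its members and the 45 lists were chosen with earlier results of these data known. Alternatives changed the arrays used, the replicate block, normalization, the variance model, the filter on dim genes, the choice of probe set and the treatment of background. Promoters came from RefSeq (GRCm38.p6).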

Additional observations from a re-analysis of the deposited data

Results flagged for a closer look

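In 20 of the 228 genes named here 1 of the 4 EKO arrays on Western diet lay apart from the other 3 by a gap test. The test sets the gap against the range of the 4 arrays, so a small gap can be flagged. For Mark4 the flagged array was at 8.74 and the other 3 at 8.82 to 8.83. Chance alone flags about 1 in 20 groups, and over all genes 5.32% were flagged. EKO replicate 1 was the low array for Vldlr (10.23), Dmpk (10.69), Lctl (9.416), H2-DMa (8.789), Npc2 (10.84), Lss (8.455), Tm7sf2 (8.183) and Gsta3 (10.59). EKO replicate 2 was the high array for Msr1 (9.047), Tlr13 (9.011), Lipa (11.21), C3ar1 (10.95) and Ncf4 (8.024), all of them genes called lower in EKO. EKO replicate 3 was the low array for Mark4 (8.74), Dbt (11.02), Pnpla2 (13.28), Crat (12.32), Cerk (9.129) and Sdf2l1 (9.17). EKO replicate 4 was the low array for Cd3e (8.23).

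For 38 named genes the genotype difference was not the same on both diets by limma's test of the difference itself (adjusted p under 0.05); values are the difference on Western diet minus that on normal diet, in log2. Among phagocyte genes it was -3.20 for Atp6v0d2, -2.09 for Itgax, -2.25 for Il7r, -1.54 for Ctsk, -1.59 for Slc37a2, -2.13 for Tlr13, -1.63 for Cd180, -1.35 for Clec4a2 and -1.26 for Itgb2. For the lysosomal genes Cstb, Gla and Lipa it was -1.08, -0.83 and -0.87. For the cell division genes Mki67, Spc25 and Rrm2 it was -1.30, -1.52 and -1.02. Matrix and acute phase genes gave -1.97 for Timp1, -1.63 for Adam8, -2.03 for Mrc2 and -2.44 for Saa3. Other negative values were -2.98 for Cdkl4, -2.28 for Gpr50, -2.30 for Oxtr, -1.98 for Tfr2, -1.43 for Otop1 and -1.5 for Fam122b. Metabolic and detoxifying genes had positive values: 2.17 for Ces1f, 1.34 for Ces1d, 1.66 for Pck1, 1.28 for Cyp2e1, 1.36 for Agt, 1.31 for Gsta4, 0.89 for Gstt1, 0.82 for Asns, 1.34 for Eci3 and 0.63 for Phyh. Positive values were also found for Adgrg2 (1.87), Dennd2d (1.62) and Smyd1 (1.10).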

How the results depend on the processing

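The count of genes called on Western diet (1134) stayed within 1.5 times with only the 7 arrays of the contrast, equal array medians, trend and robust variance, filters on dim genes, other choices of probe set and only the arrays of lower background (912 to 1616). It moved to 1845 with quantile normalization, 6789 with array weights (3410 higher, 3379 lower), 2033 with the background block and 1981 with background as a covariate, and ranged from 316 to 2108 with 1 array left out. The replicate block gave 1672 genes (345 higher, 1327 lower). Deviations of same-numbered WT and EKO arrays correlated at 0.644, 0.485 and -0.114. WT replicates 1 and 2 correlated best with the EKO array of their own number, and WT replicate 3 did not. All positive correlations joined arrays on the same side of the background split. They were 0.644 and 0.256 for WT replicate 1 with EKO replicates 1 and 3. For WT replicates 2 and 3 with EKO replicates 2 and 4 they were 0.39 to 0.485. Whether a shared number means shared handling was not tested, nor was the part of the background. The count for the difference between diets (96) moved to 159 with the replicate block, 285 with quantile normalization, 2338 with array weights, 320 with the background block, 566 with only the arrays of lower background and 342 with background as a covariate, and ranged from 37 to 499 with 1 array left out. On normal diet the count of 1 was 2 with the replicate block, trend and robust variance, array weights, either filter on dim genes, the background block and only the arrays of lower background, and 1 to 3 with 1 array left out. Apoe kept its call on Western diet in all alternatives, at -3.55 to -3.23.

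Of 202 called genes named here besides Apoe, 101 kept the call in all alternatives and 0 changed sign; leaving out WT replicate 2 ended 84 calls and WT replicate 3 ended 98, and the other Western arrays 7 to 46 each. Only the 7 arrays of the contrast ended 23 calls, only the arrays of lower background 15, quantile normalization 3, the probe set of highest variance 3, the mean of probe sets 1, equal medians 1 and trend and robust variance 1. The cause was not tested. The replicate block ended the calls of Irs1, Gpd1 and Gpx1. Of 25 uncalled genes 8 changed sign in some alternative. With 1 array left out the lowest and highest values were -0.030 and 0.25 for Nnt, -1.71 and 0.89 for Alb, -1.12 and 0.30 for Apoa1, -0.045 and 0.0046 for Il6, -0.065 and 0.15 for Abcg1, -0.30 and 0.056 for Fasn, and -0.026 and 0.046 for Ucp1. The highest values of Alb and Apoa1 and the lowest of Nnt were those without WT replicate 1. With array weights Alb was at 0.62 and Apoa1 at 0.050, and with only the arrays of lower background at 1.07 and 0.27. With the replicate block Abcg1 was at -0.10. Scd1 was at -0.016 with quantile normalization. Ucp1 was at -0.0078 with the replicate block and with equal medians, -0.058 with quantile normalization, -0.035 with only the arrays of lower background and -0.00036 with background as a covariate. Genes near the array background, such as Ucp1 and Il6, have little signal to show a difference.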

Other observations

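Of the 1134 called genes, 928 are in none of the 45 lists, and the genes below were chosen after their values were seen, so they support nothing. Genes of leukocyte signalling outside the lists were lower in EKO on Western diet: the CD45 gene Ptprc (-0.83 ± 0.20, adjusted p = 0.0233), the integrin chain gene Itgb2 (-1.29 ± 0.18, adjusted p = 0.000899), the kinase gene Btk (-0.84 ± 0.23, adjusted p = 0.0465), the exchange factor gene Vav1 (-0.82 ± 0.23, adjusted p = 0.0486), the adaptor gene Lcp2 (-0.67 ± 0.15, adjusted p = 0.0199) and the migration factor gene Dock2 (-1.04 ± 0.21, adjusted p = 0.0107). Subunits of the phagocyte oxidase were lower as well, Cyba (-1.04 ± 0.19, adjusted p = 0.00591), Ncf1 (-0.66 ± 0.13, adjusted p = 0.00906) and Ncf4 (-0.67 ± 0.14, adjusted p = 0.0116). The transcription factor genes Irf5 (-0.84 ± 0.14, adjusted p = 0.00379), Irf8 (-1.11 ± 0.27, adjusted p = 0.0274), Rel (-0.70 ± 0.19, adjusted p = 0.0443) and Nfkb2 (-0.57 ± 0.13, adjusted p = 0.0238) had the same direction. The macrophage marker mean (10.7 to 11.2 in WT, 9.71 to 10.3 in EKO) moved with these genes, and its part was not tested. With 1 array left out (named in brackets), the call ended for Ncf1 (WT replicate 3), Dock2 and Ncf4 (WT replicate 2 or 3), Ptprc and Lcp2 (WT replicate 2 or 3 or EKO replicate 1 or 4), Irf8 (WT replicate 2 or 3 or EKO replicate 1, 3 or 4), Nfkb2 (WT replicate 2 or 3 or EKO replicate 2, 3 or 4) and Btk, Vav1 and Rel (WT replicate 2 or 3 or any EKO array), at adjusted p = 0.0509 to 0.281. Under another setting (in brackets) the call ended for Btk (quantile normalization), Vav1, Irf8 and Rel (only the 7 Western arrays) and Lcp2 (only arrays of lower background), at adjusted p = 0.0541 to 0.0909.

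Detoxifying and peroxisomal genes outside the lists were higher in EKO: the monooxygenase gene Fmo1 (0.88 ± 0.13, adjusted p = 0.00149), the epoxide hydrolase gene Ephx2 (0.79 ± 0.21, adjusted p = 0.0381), the sulfotransferase gene Sult1a1 (0.77 ± 0.15, adjusted p = 0.0075), the glutathione transferase gene Gstt2 (0.88 ± 0.19, adjusted p = 0.0137), the peroxisomal isomerase gene Eci3 (1.27 ± 0.12, adjusted p = 4.62e-05) and Phyh, which starts the breakdown of phytanic acid (0.66 ± 0.076, adjusted p = 0.000269). Calls that ended once 1 array was left out were those of Sult1a1 and Gstt2 (WT replicate 2 or 3) and Ephx2 (WT replicate 2 or 3 or EKO replicate 1, 2 or 4), at adjusted p = 0.0532 to 0.183. Other settings ended the call of Gstt2 (only the 7 Western arrays), at adjusted p = 0.0523.

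For some called genes the mean of EKO mice on Western diet lay farther from the other 3 group means than that of WT mice on Western diet. Fgf10, a growth factor for fat cell progenitors, was at 10.06 ± 0.30 in WT and 10.22 ± 0.24 in EKO on normal diet, and at 9.78 ± 0.24 in WT and 10.65 ± 0.26 in EKO on Western diet. Plau, the urokinase gene, was at 9.97 ± 0.29 and 9.71 ± 0.33 on normal diet, and at 10.17 ± 0.31 and 9.34 ± 0.29 on Western diet. Smyd1, a methyltransferase of muscle, was at 8.11 ± 0.20 and 7.80 ± 0.19, and then at 7.86 ± 0.21 and 8.65 ± 0.13. Leaving out 1 array ended the call of Plau (WT replicate 2 or 3 or EKO replicate 1 or 3), at adjusted p = 0.074 to 0.197.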
